A study of Mus musculus with 4 samples.

Results

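The 8 genes described here encode acute-phase and antimicrobial proteins that cells secrete: the serum amyloid A genes Saa1, Saa2 and Saa3, lipocalin 2 (Lcn2), the calgranulin genes S100a8 and S100a9, secretory leukocyte protease inhibitor (Slpi) and lipopolysaccharide-binding protein (Lbp). They were taken by symbol from the 54446 genes of the table, and all 8 were found. The genes were chosen by name, with their FPKM in these libraries and their changes with baicalin already known, so every value below is a description and none is a test. RNA was sequenced from mammary gland cells of wild-type C57BL/6 female mice, sorted by flow cytometry and grown in 3D culture in Matrigel, with 1 library for each of 4 conditions. Cells labelled basal and cells labelled luminal were each cultured with DMSO, the control, or with 100 μM baicalin, a flavonoid from Scutellaria roots. All 4 conditions thus share the strain, the genotype, the Matrigel and the base of the culture medium. The paper's methods name saline as the solvent of baicalin, and whether the baicalin cultures also held DMSO is not stated. The labels give no age, and mice pooled per culture are not stated. Each condition is a single culture, so the treatment cannot be told apart from anything else that set the cultures apart, and no p-value is given.

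Acute-phase proteins are made in quantity when tissue senses infection or damage. Interleukin-1, tumor necrosis factor and interleukin-6 family cytokines raise their genes through the transcription factors NF-kB, C/EBP and STAT3, in liver and also in epithelia that face the outside, the mammary gland among them. Lipocalin 2 withholds iron from bacteria by binding their siderophores, the S100a8 and S100a9 proteins pair as calprotectin and withhold zinc and manganese, Slpi inhibits neutrophil elastase and other serine proteases, serum amyloid A proteins bind retinol and lipid, and Lbp hands lipopolysaccharide to Cd14 and the Toll-like receptor Tlr4.

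The deposited unit is FPKM, a fragment count corrected for exon length and library depth, so levels can be compared between genes. Between 98.4% and 98.6% of low values came out as whole fragments once exon length was put back, and by these steps the 4 libraries held between 19355972 and 20648761 fragments. The 95% intervals in brackets are exact Clopper-Pearson intervals on ratios of FPKM from these fragments, and they cover counting error only. Markers went against the labels: all 10 basal markers, Krt5, Krt14 and Acta2 among them, were higher in the library labelled luminal than in that labelled basal under DMSO, with a median log2 difference of 3.29, and all 10 luminal keratin and epithelial markers were lower, with a median of -1.89. With baicalin the medians were 3.94 and -1.76. Within the libraries labelled basal, baicalin went with a log2 change below -1 in 4 of the 10 basal markers. Of the 17787 genes above 0 in all libraries, 3.33% changed that far down. Krt5 was at 128 FPKM with DMSO and 3.01 with baicalin. The libraries are therefore named by their labels only. In bulk RNA, fewer cells of a type and less RNA per cell cannot be told apart, and the part of cell makeup in the results below was not tested.

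Serum amyloid A genes lie side by side on mouse chromosome 7 in the genome build GRCm38. Saa1 spans chr7:46740497-46742980 on the minus strand, Saa2 spans chr7:46751790-46754313 on the plus strand, and Saa3 spans chr7:46711998-46715700 on the minus strand. Saa1 and Saa2 are close copies, which bears on how fragments were assigned to them. Their coding sequences, of 366 bases each without the stop codon, were 95.1% identical, with 18 differing bases, while Saa1 and Saa3 were 73.0% identical. The 287 bases from coding position 73 to 359, counted from the A of the start codon, hold all 18 differences, shown in capitals (GENCODE mouse release M21 on GRCm38).
Saa1: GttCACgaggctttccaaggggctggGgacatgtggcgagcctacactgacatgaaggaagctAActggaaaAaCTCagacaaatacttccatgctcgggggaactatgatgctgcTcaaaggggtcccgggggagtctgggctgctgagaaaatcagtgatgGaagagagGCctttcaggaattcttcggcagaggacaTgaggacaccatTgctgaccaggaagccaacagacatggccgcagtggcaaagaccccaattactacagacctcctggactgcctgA
Saa2: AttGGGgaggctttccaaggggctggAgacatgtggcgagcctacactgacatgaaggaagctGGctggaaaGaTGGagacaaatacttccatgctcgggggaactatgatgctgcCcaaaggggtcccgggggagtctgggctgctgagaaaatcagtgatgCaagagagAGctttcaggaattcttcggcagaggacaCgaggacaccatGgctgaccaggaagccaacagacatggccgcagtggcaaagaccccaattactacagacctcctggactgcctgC
The capitals are spread along the stretch, with unbroken matches of many bases between them. Of all stretches of 50 bases in the transcripts of Saa1, 31.5% also occurred in another gene, and 30.0% of those of Saa2 did, so how fragments were divided between the pair is uncertain. For Saa3 the share was 3.57%, and it was 0 for Lcn2, S100a8, S100a9 and Slpi and 0.187% for Lbp.

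Sequence upstream of the start is shown for Saa3, S100a8 and S100a9, the members whose FPKM ratio between baicalin and DMSO was furthest from 1 in the libraries labelled luminal. It comes from RefSeq on GRCm38.p6, ends before the annotated exons of the gene, and reads 5′ to 3′ along the strand of the gene. Capitals mark matches to a C/EBP motif searched as TTNNGCAA on both strands.
Saa3, chr7:46715701-46715926, minus strand: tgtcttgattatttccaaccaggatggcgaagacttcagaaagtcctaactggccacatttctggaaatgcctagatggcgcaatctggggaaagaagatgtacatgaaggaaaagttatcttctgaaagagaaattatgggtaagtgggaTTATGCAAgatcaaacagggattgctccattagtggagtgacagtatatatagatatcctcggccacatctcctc
S100a8, chr3:90668821-90668977, plus strand: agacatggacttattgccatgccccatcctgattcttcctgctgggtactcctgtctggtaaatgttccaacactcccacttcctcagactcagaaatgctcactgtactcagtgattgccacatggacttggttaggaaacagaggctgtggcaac
S100a9, chr3:90695722-90695971, minus strand: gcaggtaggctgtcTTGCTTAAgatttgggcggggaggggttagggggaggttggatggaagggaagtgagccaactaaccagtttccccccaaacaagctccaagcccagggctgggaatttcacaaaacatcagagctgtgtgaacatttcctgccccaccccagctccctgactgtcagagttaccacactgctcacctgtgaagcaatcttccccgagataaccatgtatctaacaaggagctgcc
The search ran over the 250 bases before the RefSeq start, for the 7 of 8 genes that have an entry there, and Lbp has none. The C/EBP letters occurred in 6 of the 7, at -99 in Saa3, -182 in Saa1, -183 in Saa2, -216 in Lcn2, -236 in S100a9 and -241 in Slpi, counted from the start, and they did not occur in this window of S100a8. Of 32536 mouse promoters, 9.57% held them. The Saa1 and Saa2 matches lie in near-copies of each other and are not independent. The windows of Lcn2 and Slpi lie inside the annotated span of their gene. For Lcn2, 197 of the 250 bases are in annotated exons of the gene, and for Slpi 0 are. The NF-kB motif was held by 3.92% of all promoters, the STAT motif TTCNNNGAA by 7.04% and the AP-1 motif TGANTCA by 6.73%, and none of these was found in the 7 windows. A match is a run of letters and not a measured binding site.

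The 8 genes differed in level by several orders of magnitude. Slpi, the protease inhibitor, was the highest of them in every library, and it ranked 58 of 20939 genes above 0 in the library labelled basal with DMSO, 61 of 20898 with baicalin, 20 of 22060 in the library labelled luminal with DMSO and 26 of 22099 with baicalin. Lcn2 came next, at ranks 145, 93, 472 and 714 in the same order. Together they made up between 97.5% and 99.8% of the summed FPKM of the 8 genes, which was 638, 729, 1218 and 937. The other genes were low: 5, 4, 3 and 5 of the 8 reached 1 FPKM. Saa2 was listed at 0 in both libraries labelled luminal, and S100a9 was listed at 0 in the library labelled basal with baicalin.

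**Figure D1:**
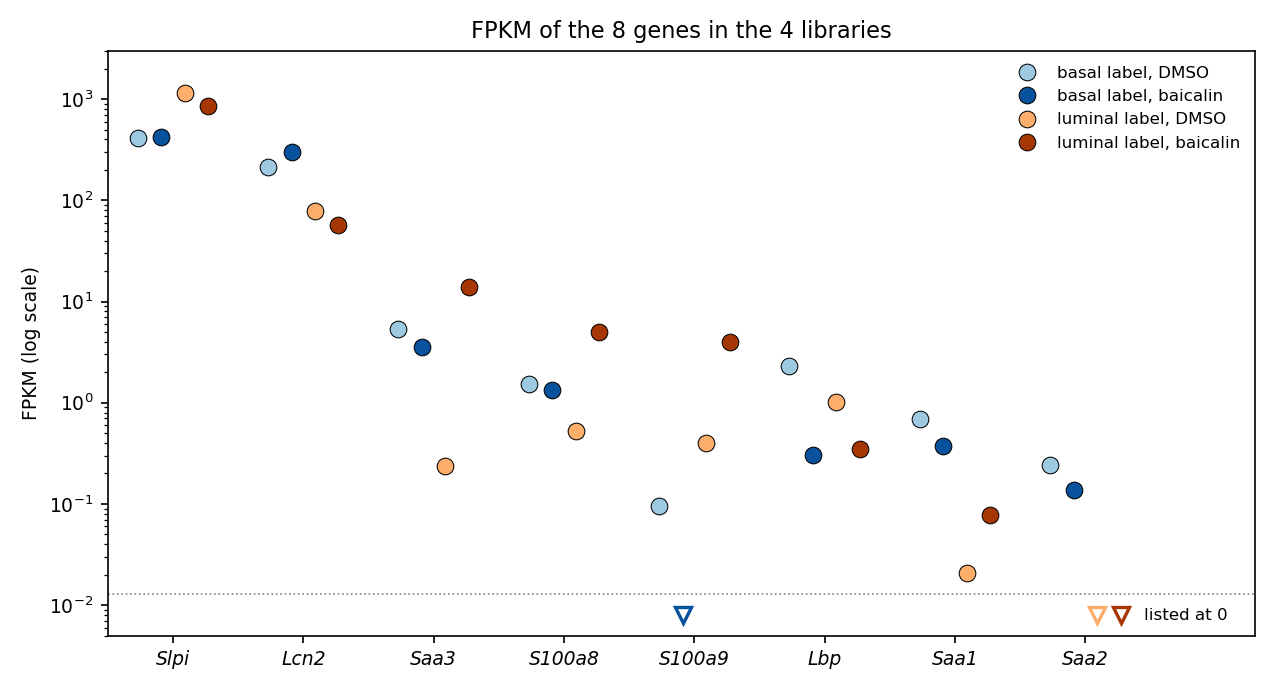
FPKM on a log scale (vertical axis) of the 8 genes (horizontal axis), with 1 point for each of the 4 libraries and open triangles below the dotted line for genes listed at 0. Slpi and Lcn2 sit far above the rest, and Saa3 spans from 0.238 FPKM in the library labelled luminal with DMSO to 14.01 with baicalin.

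How these genes differed between baicalin and DMSO was asked first in the libraries labelled basal. Here Lbp was lower, Lcn2 was somewhat higher, Saa3 was somewhat lower, and Slpi was level. To every FPKM 1 was added before taking log2 ratios of baicalin to DMSO, which makes changes of low genes look smaller, and a log2 change of 1 served as threshold. Of the 6 members above 0 in all libraries, 1 was lower by more than 1 and 0 were higher, where 3.33% of the 17787 genes above 0 in all libraries were lower and 2.15% higher. S100a9 and Saa2 fell outside this filter because each was listed at 0 in a library. The median change was -0.20 over the 6 members and 0.01 over all 17787 genes.

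The corresponding question for the libraries labelled luminal had another answer for most of the genes. Saa3, S100a8 and S100a9 were higher with baicalin, and Lcn2, Slpi and Lbp were lower. Of the 6 members above 0 in all libraries, 2 were higher by more than 1 and 0 lower, where 2.37% of the 17787 genes were higher and 1.59% lower. With no filter on low values, 3 of all 8 members were higher, where 0.909% of 54446 genes were. Only 22060 of these genes were above 0 with DMSO and 22099 with baicalin, so the share is low for that reason too. Among genes reaching 1 FPKM in a library, 3 of 6 members were higher, where 3.59% of genes were. Over the 6 members above 0 in all libraries the median change was -0.16, and it was -0.02 over the 17787 genes. The 2 high values were thus not shared by the list.

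**Figure D2:**
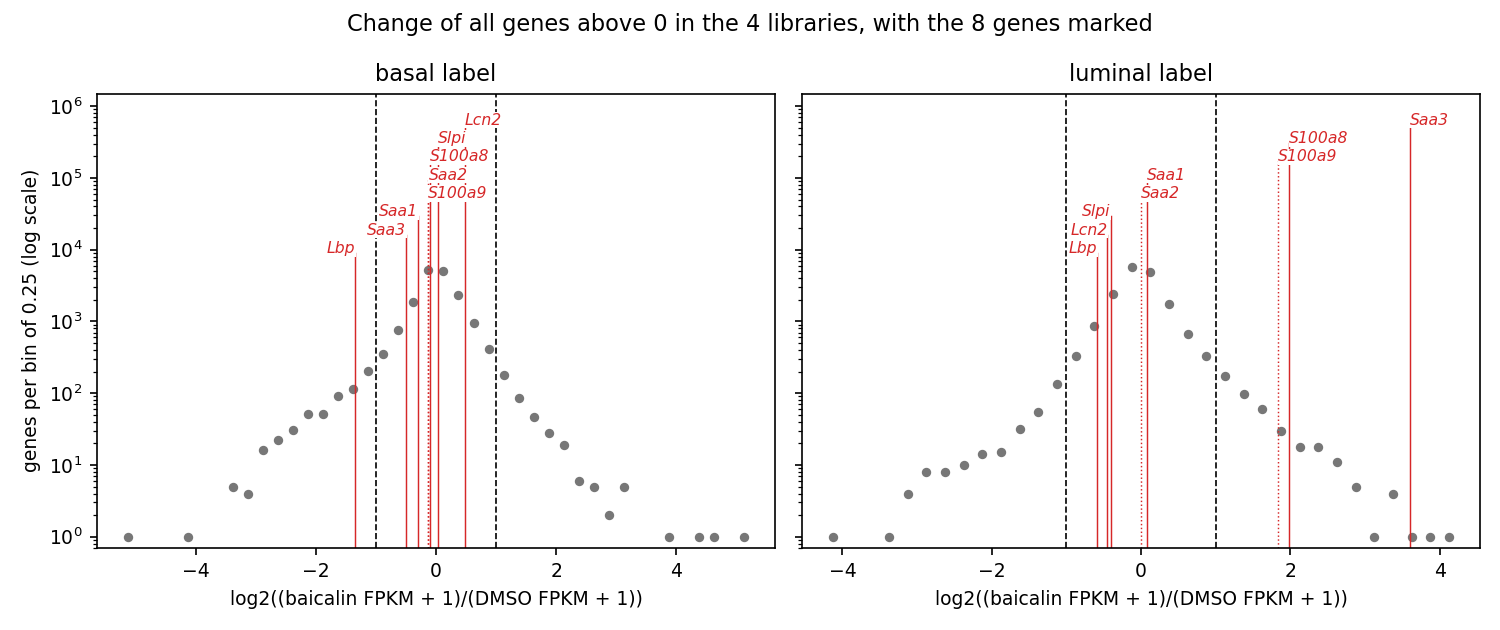
Genes per bin of 0.25 (vertical axis, log scale) by log2 change with baicalin (horizontal axis), for the 17787 genes above 0 in all 4 libraries, in the libraries labelled basal (left) and luminal (right). Red lines mark the 8 genes, dotted for those outside the filter, and dashed lines mark the threshold of 1: Saa3 is at 3.60 in the right panel and at -0.49 in the left.

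Saa3 encodes the serum amyloid A protein that epithelia, macrophages and fat make locally in the mouse, and a mammary form of it is known from milk. It was at 5.35 FPKM (277 fragments) in the library labelled basal with DMSO, 3.52 (186 fragments) with baicalin, 0.238 (12 fragments) in the library labelled luminal with DMSO and 14.01 (754 fragments) with baicalin. The library labelled luminal with baicalin was the highest and its DMSO control the lowest, with both libraries labelled basal between them. With baicalin Saa3 was 1.52-fold lower (1.26 to 1.84) under the basal label, a log2 change of -0.49. Under the luminal label it was 58.9-fold higher (33.5 to 115), a log2 change of 3.60. Between the labels these log2 changes differed by 4.09, the widest gap among the 8 genes. The direction was opposite, but the difference was not tested. The order of the labels turned with treatment: Saa3 was 22.5-fold lower (12.7 to 44.1) in the library labelled luminal than in that labelled basal with DMSO, and 3.98-fold higher (3.39 to 4.70) with baicalin.

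Saa1 and Saa2 encode the serum forms that liver releases into blood. Saa1 had 34 fragments (0.691 FPKM) in the library labelled basal with DMSO, 19 (0.378 FPKM) with baicalin, 1 (0.0208 FPKM) in the library labelled luminal with DMSO and 4 (0.0782 FPKM) with baicalin. Saa2 had 12, 7, 0 and 0 fragments in the same order, or 0.240, 0.137, 0 and 0 FPKM. Both genes were thus seen mainly in the libraries labelled basal. Because the genes share sequence, their fragments were also summed. The sum was lower with baicalin under the basal label, with a ratio of 0.553 (0.328 to 0.914), while Saa1 alone gave 0.547 (0.295 to 0.987) and Saa2 alone 0.571 (0.190 to 1.57). Under the luminal label Saa1 gave a ratio of 3.76 (0.371 to 185), so no change was detectable at this depth, and Saa2 was at 0 in both libraries, where 3 fragments would be 0.0616 and 0.0577 FPKM. The summed genes were 44.8-fold lower (7.66 to 1809) in the library labelled luminal than in that labelled basal with DMSO and 6.62-fold lower (2.30 to 26.1) with baicalin, and they did not share the change of order that Saa3 showed.

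Lcn2, on chromosome 2 (chr2:32384633-32388252, minus strand), was at 212 FPKM in the library labelled basal with DMSO, 297 with baicalin, 78.7 in the library labelled luminal with DMSO and 57.3 with baicalin. Both libraries labelled basal were above both labelled luminal. With baicalin it was 1.40-fold higher (1.37 to 1.43) under the basal label and 1.37-fold lower (1.31 to 1.44) under the luminal label, neither past the threshold, with log2 changes of 0.48 and -0.45. The direction was opposite in the libraries of both labels and the reverse of that of Saa3 in each, but the difference was not tested. Between the labels Lcn2 was 2.69-fold lower (2.60 to 2.79) in the library labelled luminal with DMSO and 5.18-fold lower (4.98 to 5.39) with baicalin. At between 3103 and 15790 fragments, counting error was small for this gene, and the error between cultures is unknown.

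S100a8 and S100a9 stand together on chromosome 3, at chr3:90668978-90670035 on the plus strand and chr3:90692632-90695721 on the minus strand, and their proteins form calprotectin, abundant in neutrophils and induced in stressed squamous epithelium. S100a8 had 21 fragments (1.52 FPKM) in the library labelled basal with DMSO, 19 (1.35 FPKM) with baicalin, 7 (0.521 FPKM) in the library labelled luminal with DMSO and 72 (5.02 FPKM) with baicalin. S100a9 had 1, 0, 4 and 43 fragments, or 0.0965, 0, 0.396 and 3.99 FPKM. Both genes were highest in the library labelled luminal with baicalin. Under the luminal label, S100a8 was 9.64-fold higher (4.45 to 24.8) and S100a9 10.1-fold higher (3.66 to 38.7) with baicalin, with log2 changes of 1.99 and 1.84. Under the basal label S100a8 had a ratio of 0.886 (0.450 to 1.73), so no change was detectable, and S100a9 was within 3 fragments of 0 in both libraries and has no fold. The pair was also unequal. S100a8 FPKM was 15.8 times S100a9 FPKM in the library labelled basal with DMSO, where S100a9 rests on 1 fragment, and 1.32 and 1.26 times in the libraries labelled luminal. With DMSO, S100a8 was 2.92-fold lower (1.20 to 8.14) in the library labelled luminal, and S100a9 gave a ratio of 4.10 (0.406 to 202). With baicalin, S100a8 was 3.72-fold higher (2.22 to 6.54) and S100a9 at least 14.1-fold higher in the library labelled luminal, the latter against a floor of 3 fragments in the other library.

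Slpi, on chromosome 2 (chr2:164354070-164389095, minus strand), is a small inhibitor of proteases that coats mucosal surfaces and is itself antimicrobial. It was at 416 FPKM in the library labelled basal with DMSO, 426 with baicalin, 1137 in the library labelled luminal with DMSO and 857 with baicalin. Both libraries labelled luminal were above both labelled basal, the opposite order to Lcn2. The ratio of Slpi to Lcn2 FPKM was 1.96, 1.44, 14.4 and 15.0 in the 4 libraries, so it followed the label more than the treatment. With baicalin the ratio was 1.03 (0.997 to 1.05) under the basal label, within counting error, and Slpi was 1.33-fold lower (1.30 to 1.35) under the luminal label, short of the threshold at a log2 change of -0.41. Between the labels it was 2.73-fold higher (2.67 to 2.80) in the library labelled luminal with DMSO and 2.01-fold higher (1.96 to 2.06) with baicalin. The microRNA gene Mir7678 overlaps a Slpi exon by 1 base on the same strand.

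Lbp, on chromosome 2 (chr2:158306493-158332852, plus strand), is a liver-made carrier of lipopolysaccharide that some epithelia also express. It had 223 fragments (2.33 FPKM) in the library labelled basal with DMSO, 30 (0.306 FPKM) with baicalin, 96 (1.03 FPKM) in the library labelled luminal with DMSO and 35 (0.351 FPKM) with baicalin. Both baicalin libraries were below both DMSO libraries, which was so for no other member. Lbp was 7.59-fold lower (5.17 to 11.5) with baicalin under the basal label and 2.93-fold lower (1.97 to 4.44) under the luminal label. On the log2(FPKM + 1) scale these were -1.35 and -0.59, since the pseudocount of 1 FPKM weighs on a gene this low. Between the labels it was 2.26-fold lower (1.78 to 2.91) in the library labelled luminal with DMSO, and the ratio was 1.15 (0.684 to 1.93) with baicalin.

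**Figure D3:**
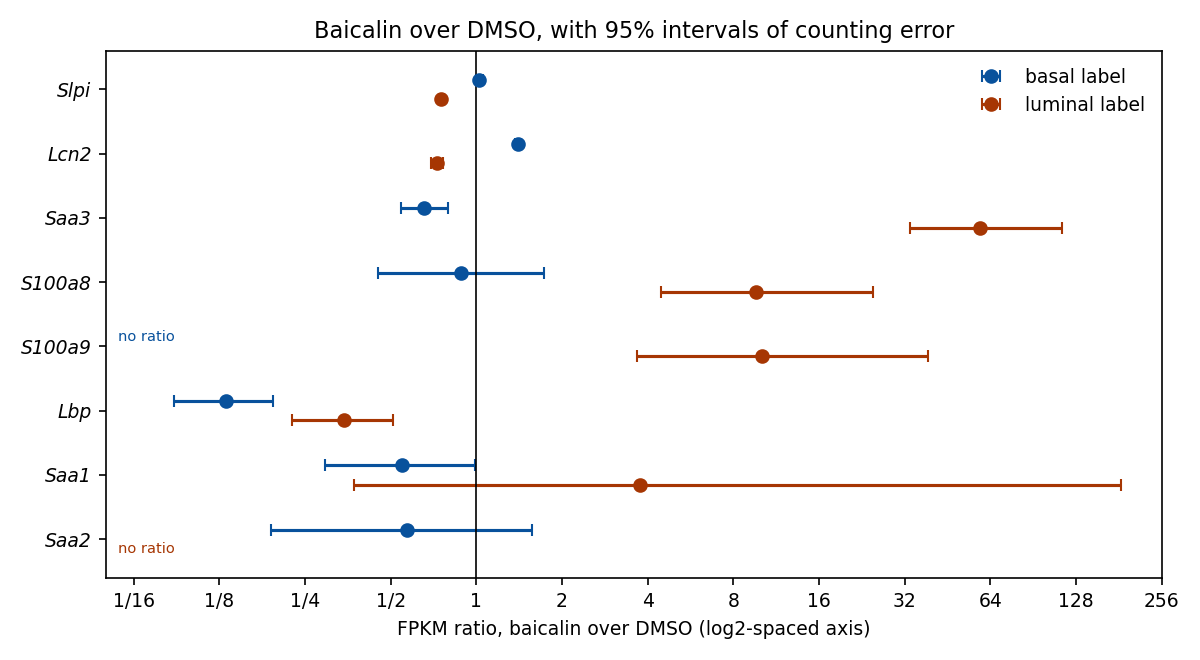
FPKM ratio of baicalin over DMSO (horizontal axis, log2 spacing) for the 8 genes (vertical axis), with 95% intervals of counting error, in the libraries labelled basal (blue) and luminal (brown). Saa3 and Lcn2 lie on opposite sides of 1 between labels, at 0.657 and 58.9 and at 1.40 and 0.728, while Lbp lies below 1 under both.

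Set between the labels, the genes fell into no single order. With DMSO, 1 of the 6 members above 0 in all libraries was higher by more than 1 in the library labelled luminal (Slpi) and 2 were lower (Saa3 and Lcn2), where 4.71% of 17787 genes were higher and 3.86% lower. The median difference was -0.73 over the members and 0.01 over all genes. With baicalin, 3 were higher (Saa3, S100a8 and Slpi) and 1 lower (Lcn2), where 5.24% of genes were higher and 2.99% lower, with medians of 0.53 and -0.03. Slpi passed narrowly, at 1.01, and on the TPM scale, which sets every library to the same sum, it did not pass, at 0.94. The baicalin and label comparisons share libraries, so Saa3 and S100a8 appear in both through the same library.

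Cytokines that induce acute-phase genes were described next, since they are the signals upstream. In the libraries labelled luminal, 5 of 13 tested were higher by more than 1 with baicalin, 1 was lower and 11 were above 0 in change, with a median of 0.45, which ran up to 1.90 under other settings. In the libraries labelled basal, 1 was higher and 1 lower, with a median of -0.11. Of the 17787 genes above 0 in all libraries, 2.37% were higher and 1.59% lower by more than 1 under the luminal label. Under the basal label 2.15% were higher and 3.33% lower. The same shares stand beside the counts of the lists that follow. Il1a, the epithelial alarm cytokine of the interleukin-1 family, was at 1.81 FPKM with DMSO and 18.4 with baicalin under the luminal label, and at 39.3 and 13.5 under the basal label. Il1f9, which encodes interleukin-36 gamma of squamous epithelium, was higher under both, from 0.314 to 9.08 FPKM and from 0.244 to 2.30. Tnf went from 6.46 to 28.2 FPKM under the luminal label and from 54.4 to 39.4 under the basal label. Il33, an alarmin, moved the other way under the luminal label, from 35.2 to 3.36 FPKM. Il6, a main inducer of serum amyloid A in liver, was at 0.456 FPKM at most. It had 22 fragments with DMSO and 2 with baicalin under the basal label, a ratio of 0.0890 (0.0101 to 0.362). Under the luminal label Il6 had 3 and 6 fragments, a ratio of 1.88 (0.400 to 11.6). Il17a and Ifng were listed at 0 in all 4. Lif, another cytokine of the interleukin-6 family, was at 55.3 and 64.2 FPKM under the basal label with DMSO and baicalin. Under the luminal label Lif was at 4.54 and 14.5 FPKM, a ratio of 3.20 (2.85 to 3.59). Csf3 was at 34.0, 39.8, 2.56 and 9.56 FPKM in the same order.

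Receptors and adaptors upstream came next, a list that holds receptors of these cytokines and also Toll-like receptors with Cd14 and Ly96. Of 24 tested, 1 was higher and 1 lower by more than 1 under each label, with medians of 0.02 under the basal label and 0.18 under the luminal label. Lifr, the receptor of leukemia inhibitory factor, was lower under both, at log2 changes of -1.31 and -1.42. Tlr2, a sensor of bacterial lipoproteins, was the gene higher by more than 1 under the luminal label, at 16.4 FPKM with DMSO and 40.2 with baicalin. Tnfrsf1b, a tumor necrosis factor receptor, was higher with baicalin under both labels. It went from 3.34 to 8.11 FPKM under the basal label and from 0.45 to 1.67 under the luminal label. These were rises of 2.43-fold (2.10 to 2.82) and 3.75-fold (2.54 to 5.67). Only the basal change passed the threshold, at 1.07, while the luminal change was 0.89.

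Genes of NF-kB factors and their feedback inhibitors were the list that moved most evenly under the luminal label. All 15 were tested, 15 had a log2 change above 0 and 3 were higher by more than 1, with a median of 0.64 where the median of all genes was -0.02. Those 3 were Tnfaip3, Nfkbia and Tnip1, which are induced by NF-kB and hold it back, at log2 changes of 1.48, 1.12 and 1.01. Nfkbia was at 51.6 FPKM with DMSO and 114 with baicalin in these libraries, and at 150 and 126 under the basal label. Under the basal label 0 of the 15 passed the threshold in either direction, 7 were above 0 in change, and the median was -0.10. For 3 of the 15 under the luminal label, Nfkb1, Chuk and Ikbkb, the counting interval of the ratio held 1, so their place above 0 is within counting error. Nfkb1 itself was at 18.5 FPKM in both libraries (interval of the ratio 0.960 to 1.04). Between the labels with DMSO, 5 of the 15 were lower by more than 1 in the library labelled luminal and 0 were higher. Over all 17787 genes, 3.86% were lower and 4.71% higher. The median difference over the 15 was -0.68, so the library labelled luminal with DMSO started low for this list. With baicalin 0 of the 15 passed the threshold in either direction between the labels, where 2.99% of genes were lower and 5.24% higher. The median difference over the 15 was then -0.28.

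For C/EBP factors, STAT3 and their feedback, 1 of 13 was higher and 0 lower under the basal label and 0 passed the threshold under the luminal label, with medians of 0.10 and 0.07. Cebpa, a differentiation factor of the C/EBP family, was the gene past the threshold, at 1.18 FPKM with DMSO and 4.92 with baicalin. Cebpb, the C/EBP factor of the acute phase, was between 28.1 and 40.5 FPKM in the 4 libraries, and Socs3, a feedback inhibitor that STAT3 induces, had log2 changes of -0.49 and -0.17.

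Other acute-phase proteins were mixed. Under the basal label 0 of 15 tested were higher by more than 1, 4 were lower, and the median was -0.33. These were Hp, which encodes the hemoglobin scavenger haptoglobin, Il1rn, the interleukin-1 receptor antagonist, Steap4, a metal reductase, and Fgg, a fibrinogen chain. Hp was at 21.6 FPKM with DMSO and 3.93 with baicalin. Under the luminal label 2 were higher and 3 lower, and the median was -0.01. C3, the central complement protein, went from 8.23 to 36.9 FPKM there and Il1rn from 2.08 to 6.99, while Fgg went from 8.42 to 0.324, Hp from 19.8 to 8.11 and Steap4 from 24.8 to 10.9. Hp, Steap4 and Fgg were thus lower with baicalin under both labels, as Lbp was.

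Of the other secreted antimicrobial genes, 18 of the 33 found were tested. Under the luminal label 3 were higher and 1 lower by more than 1, around a median of -0.21. The 3 were Defb14, a beta-defensin, at 1.77 and 14.7 FPKM with DMSO and baicalin, Spink5, a protease inhibitor of cornified epithelium, at 10.5 and 45.1 FPKM, and Chil1, a chitinase-like protein, at 49.2 and 125 FPKM. Cst3, a cysteine protease inhibitor, was the lower gene, at 124 and 53.3 FPKM. Under the basal label 2 were higher and 4 lower, and the median was -0.23. Among these were Wfdc12, of the same whey acidic protein domain family as Slpi, at 11.05 and 0.827 FPKM, and Muc1, a surface mucin, at 7.94 and 0.672 FPKM. Rnase1, a secreted ribonuclease, was higher, at 1.88 and 9.69 FPKM. Wfdc2, another member of the Slpi family, had log2 changes of -0.15 and -0.17.

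Other S100 genes went both ways in the libraries labelled luminal. Of 12 tested, 0 were higher and 1 was lower by more than 1, with a median of 0.00. Under the basal label 1 was higher and 1 lower, with a median of -0.55. The list also holds S100pbp, which encodes a binding partner and no S100 protein, and the medians of the other 11 were 0.12 and -0.59. The lower gene under the luminal label was S100b, a glial S100 gene, at 1.57 FPKM (45 fragments) with DMSO and 0.0979 (3 fragments) with baicalin. S100a7a, related to psoriasin of skin, was the higher gene under the basal label, at 0.146 and 1.36 FPKM, and went from 0.113 to 0.914 FPKM under the luminal label, a ratio of 8.12 (2.49 to 41.9). S100a11, a widely expressed member, was at 1328 FPKM in the library labelled basal with DMSO and 928 with baicalin, and at 1094 and 1511 in those labelled luminal. Receptors and partners of the 8 proteins were described last. Of 14 tested, 0 were higher and 1 lower under the basal label and 2 higher and 0 lower under the luminal label, with medians of -0.10 and 0.06. Pltp, a lipid transfer protein related to Lbp, was the lower gene, at 3.15 and 0.731 FPKM. Cd14, the partner to which Lbp hands lipopolysaccharide, was at 68.9, 43.9, 10.4 and 8.41 FPKM in the 4 libraries, highest under the basal label. Slc22a17, a receptor of lipocalin 2, was at 1.75, 2.60, 5.88 and 2.92 FPKM.

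**Figure D4:**
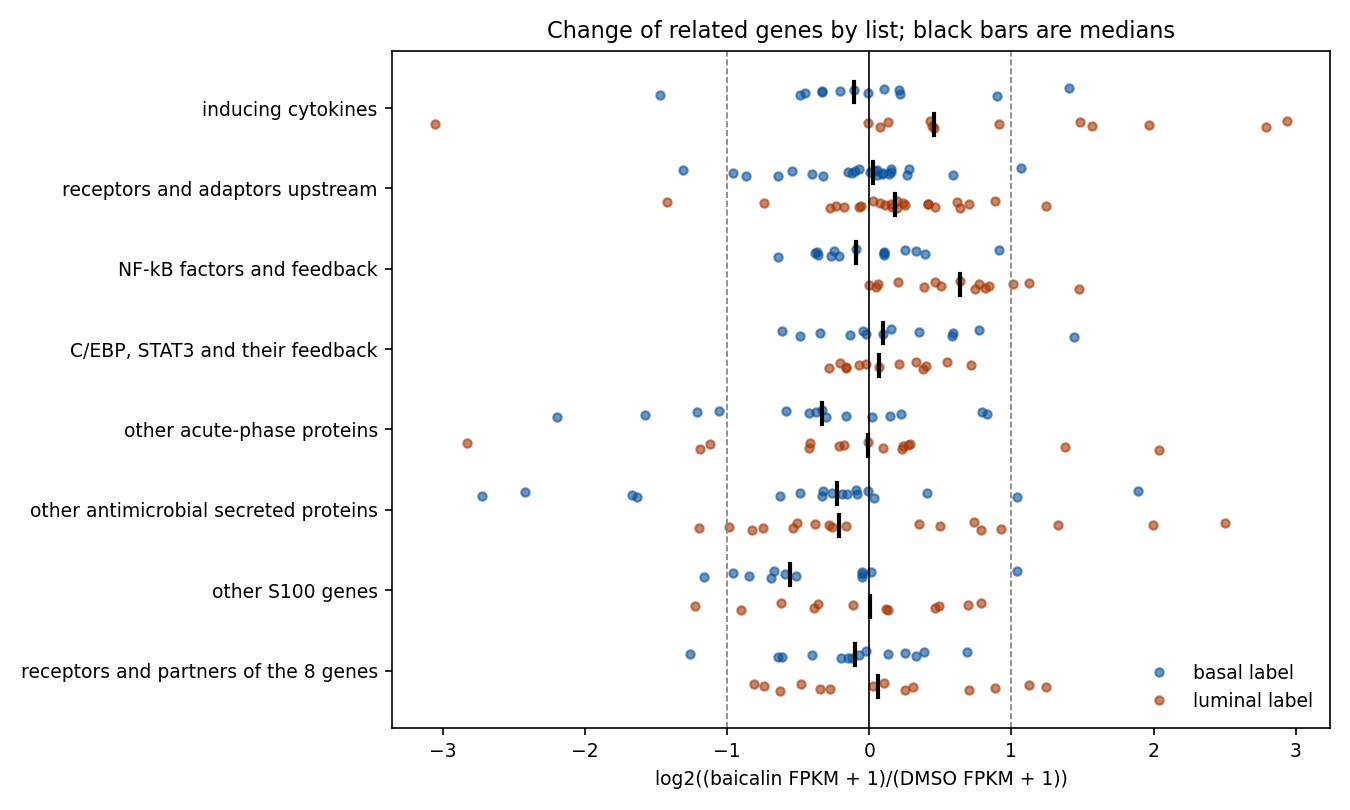
Log2 change with baicalin (horizontal axis) of each tested gene in 8 lists of related genes (vertical axis), in the libraries labelled basal (blue) and luminal (brown), with black bars at the medians and dashed lines at the threshold of 1. All 15 NF-kB genes lie to the right of 0 under the luminal label, with a median of 0.64, and on both sides under the basal label.

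Markers of leukocytes were read in the same libraries, since neutrophils carry Lcn2, S100a8 and S100a9. The study's cell sort stained for CD31, CD45 and TER119, markers of endothelial cells, leukocytes and red cells, a stain that would serve to remove leukocytes. Of 18 neutrophil markers, which include these 3 members, 6 were at 0 in all 4 libraries: Ly6g, Mpo, Ngp, Ctsg, Retnlg and Csf3r. Beside S100a8 and Lcn2, the markers Ltf, Prtn3, Mmp9 and Mmp8 were above 0 in all 4. Under the basal label Ltf had 338 fragments with DMSO and 322 with baicalin, and Prtn3 had 20 and 9. Under the luminal label Ltf had 105 and 188 fragments, and Prtn3 had 30 and 11. Ltf is also among the luminal progenitor and alveolar markers. Which cells these fragments came from was not tested. The summed FPKM of the list without the 3 members was 6.18 and 5.83 in the libraries labelled basal with DMSO and baicalin, and 3.43 and 6.39 in those labelled luminal. Of 6 tested, with S100a8 and Lcn2 among them, 0 passed the threshold under the basal label and 2 were higher under the luminal label, S100a8 and Mmp9, with medians of -0.03 and 0.38, the latter between 0.00 and 1.85 under other settings. Mmp9, a gelatinase that epithelia also make, was at 0.832 FPKM with DMSO and 3.00 with baicalin there. Of 15 markers of monocytes, macrophages and all leukocytes, 8 were tested and 0 were at 0 in all libraries. Their sum was 87.4, 99.3, 17.3 and 30.0 FPKM, most of it from Cd14 and Cd68, and Ptprc, which marks every leukocyte, was at 0.0138, 0, 0.0028 and 0.0053 FPKM. Under the basal label 1 was higher and 1 lower, and under the luminal label 2 were higher and 0 lower, with medians of -0.12 and 0.36, between -0.46 and -0.02 and between 0.02 and 0.95 under other settings. Cd68, a lysosomal protein of macrophages and other cells, was at 7.49 and 51.5 FPKM under the basal label and at 4.44 and 13.7 under the luminal label.

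Markers of the epithelial layers moved with baicalin too. The 10 basal markers had median changes of -0.65 under the basal label and -0.16 under the luminal label, with 0 higher and 4 lower and 1 higher and 3 lower. The 10 luminal keratin and epithelial markers had medians of -0.44 and -0.26. Of 9 tested luminal progenitor and alveolar markers, 0 were higher and 3 lower under the basal label and 1 higher and 3 lower under the luminal label, with medians of -0.82 and -0.51. Of 8 hormone-sensing luminal markers, 1 was higher and 3 lower and 1 higher and 2 lower, with medians of -0.19 and -0.36. Their part in the levels of the 8 genes was not tested.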

How the data were processed

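RNA of 4 libraries, 1 per condition, was analysed. The authors mapped reads to GRCm38 (HISAT2), assigned fragments to genes of Ensembl release 94 (featureCounts) and deposited FPKM. The submitters' processing notes also name Bowtie 0.12.2 and mm8, with no role given. The strand setting is not given in the sources used here, so overlapping genes are uncertain. Exon lengths from GENCODE mouse release M21 turned FPKM into fragments, and between 98.4% and 98.6% of low values fell within 0.05 of a whole fragment. No count test was made: each condition has 1 library, and a fit over both labels would assume the same response in both. Genes with FPKM above 0 in all 4 libraries were kept, as in the study's methods, and tested means kept by this filter.

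The 8 members and 14 lists of related genes (237 entries, 236 found, 3 of them under an older symbol) were chosen with earlier results of these data known. Within each list the 3 largest changes per label among genes reaching 1 FPKM were eligible to be named, and other genes named were chosen after their values were seen. A floor of 3 fragments per library was used where a gene was at 0. The computation was tested on simulated data. Alternatives were pseudocounts of 0.1 or none, other filters, TPM scaling, median centring and a threshold of 2. The software was scipy 1.17.1, numpy 2.4.6, pandas 2.3.3 and matplotlib 3.10.9 under Python 3.11.15.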

Additional observations from a re-analysis of the deposited data

Results flagged for a closer look

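Saa3 and Lcn2 moved in opposite directions with baicalin between labels, which is why they are listed. For Saa3 the FPKM ratio of baicalin over DMSO was 0.657 under the basal label and 58.9 under the luminal label. For Lcn2 the ratios were 1.40 and 0.728. Each ratio rests on 1 library per condition, and the difference was not tested.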

How the results depend on the processing

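Under TPM scaling and median centring, no member's change turned sign. A change of threshold or pseudocount moved the counts of members, and the share of all genes passing moved with them, so that share is given with each. With a threshold of 2, 0 members were lower under the basal label (0.742% of genes), 1 (Saa3) was higher under the luminal label (0.337%), and between labels 0 were higher (1.04%) and 1 lower (0.843%) with DMSO and 0 higher with baicalin (1.36%). With a pseudocount of 0.1 FPKM, 1 member (Lbp) was lower under the luminal label (5.13%), and 5 with DMSO (8.25%) and 2 with baicalin (7.46%) were lower in the library labelled luminal. With no pseudocount these counts were 1 of 7 (10.9%), 5 of 7 (10.9%) and 2 of 6 (12.5%), while 4 of 7 were higher under the luminal label (9.88%) and 2 of 7 with DMSO between labels (17.7%). Scaled to TPM, 1 was lower under the luminal label (3.25%) and 5 with DMSO between labels (7.19%).

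Medians of lists that moved were, under the basal label, -0.46 (cytokines), -0.59 (acute-phase), -0.29 (leukocytes) and -1.09 (basal markers) with a pseudocount of 0.1, then -0.76 (acute-phase), -0.46 (leukocytes) and -1.17 (basal markers) with none, -0.62 (acute-phase), -0.22 (leukocytes) and -0.85 (progenitor) on the TPM scale, -0.22 for leukocytes among genes reaching 1 FPKM, and 0.00 (antimicrobial), -0.33 (S100) and -0.52 (progenitor) without a filter. Under the luminal label they were -0.35 (antimicrobial) and -0.56 (hormone-sensing) with a pseudocount of 0.1, 0.37 (antimicrobial), 1.85 (neutrophil) and -0.61 (hormone-sensing) with none, 0.35 (antimicrobial), 0.12 (S100) and 1.13 (neutrophil) among genes reaching 1 FPKM, -0.49 (hormone-sensing) on the TPM scale, and 0.00 (neutrophil), 0.018 (leukocytes) and -0.15 (progenitor) without a filter. The median of the antimicrobial list under the luminal label thus has no settled sign, and the cause was not tested. Other medians near 0 also took both signs over the settings. Under the luminal label these ran from -0.13 to 0.12 (S100) and from -0.056 to 0.034 (acute-phase). Under the basal label they ran from -0.083 to 0.19 (neutrophil) and from -0.0074 to 0.027 (receptors and adaptors upstream). Without S100pbp, an alternative chosen after seeing the data, the S100 median under the luminal label was 0.12. Another 184 values stayed within their limits, which are 1.5 times the count, or for a median the values at the ends of its genes' counting intervals. These limits can be wide: the luminal cytokine median of 0.45 has limits of 0.38 and 2.18, and was 1.39 with a pseudocount of 0.1, 1.90 with none, 1.53 among genes reaching 1 FPKM and 1.05 on the TPM scale. With a pseudocount of 0.1 the luminal neutrophil and leukocyte medians were 1.05 and 0.95. For single members the limits are the ends of the gene's own counting interval, and 48 values moved while 131 stayed within. With no pseudocount Saa3 moved from 3.60 to 5.88 under the luminal label. Lbp moved from -1.35 to -2.92 under the basal label and from -0.59 to -1.55 under the luminal label.

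A paired fit of treatment within label was not run, since the labels are different cells and not replicates, and leaving out a library would leave a condition empty. Depth limits Saa1, Saa2 and S100a9, each at under 50 fragments in every library. It also limits the folds of S100a8 and Saa3 under the luminal label, which rest on 7 and 12 fragments with DMSO. The error between cultures is unknown for every value.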

Other observations

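The genes whose pattern over the 4 libraries was most like that of a member were found among 9181 genes of at least 5 FPKM in a library, by the distance between centred log2(FPKM + 1) values. With only 4 libraries, this is a description of values. Nearest to Saa3 were Mir7061 (distance 0.662), Tslp (0.917) and Adam8 (1.08), none of them as close as the neighbours of the other members. Mir7061 rests on at most 12 fragments in a library. Tslp, an epithelial cytokine, was at 13.8 and 8.40 FPKM in the libraries labelled basal with DMSO and baicalin and at 3.33 and 20.5 in those labelled luminal. Adam8, a membrane protease, was also among the 3 nearest to S100a8 (0.262), after Ecm1 (0.216), a matrix protein of skin, and before Gpr176 (0.335).

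Nearest to S100a9 were Ly6g6c (0.235), Lrrc32 (0.359) and Clca2 (0.382). Clca2, a protein of stratified epithelium, was at 0.228, 0.0106, 1.01 and 5.27 FPKM in the 4 libraries. Nearest to Lcn2 were Sorbs2 (0.203), Wnt5b (0.230) and Smim22 (0.365), nearest to Slpi were Mbnl1 (0.0901), Ldhb (0.122) and Rbak (0.167), and nearest to Lbp were Igfbp7 (0.0700), Spdl1 (0.197) and Lfng (0.219). Igfbp7, a secreted binding protein, was at 58.9, 22.0, 33.7 and 23.6 FPKM.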
